A study of Homo sapiens with 9 samples.

Results

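SH-Sy5y is an established human neuroblastoma cell line, here transfected for 48 h with a mimic of the microRNA miR-1229-3p. The comparison described is that of the higher with the lower amount of mimic: 3 libraries at 20 nM (40 pmol of mimic and 0 pmol of negative control oligonucleotide) against 3 at 10 nM (20 pmol of mimic with 20 pmol of negative control). The 6 libraries were taken by their labels from the 9 of the series, whose other 3 are controls (Ctrl.) with 40 pmol of negative control and 0 pmol of mimic, and all 14943 genes of the count table entered. All cells thus received the same total amount of RNA, in one cell line. Between 10 and 20 nM the mimic rises while the negative control falls to none, so that an effect of more mimic and an effect of less control oligonucleotide cannot be told apart. Polyadenylated RNA was sequenced. The purpose of the series was the search for mRNAs that the microRNA targets directly.

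A microRNA guides an Argonaute protein to messenger RNAs. Pairing mostly runs through the seed, bases 2 to 8 counted from the 5′ end of the microRNA, with matching sites in the 3′ untranslated region (UTR), and the paired messages are repressed in translation and degraded. A mimic is a synthetic duplex that loads the microRNA into this machinery. A negative control oligonucleotide is a duplex of the same make that is chosen to have no intended target, and its sequence was not analysed here. The mature microRNA is shown first because its seed defines the sites searched for below. It is the RefSeq entry of GRCh38.p14, encoded at chr5:179798278-179798300 (minus strand), and the capitals mark the seed.
hsa-miR-1229-3p: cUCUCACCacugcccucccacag
Reverse complements of the seed give the sites searched for on the message strand: the 8-mer GGTGAGAA, the 7-mer GGTGAGA (bases 2 to 8), the 7-mer GTGAGAA (bases 2 to 7 and an A) and the 6-mer GTGAGA.

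The sites below are stretches of 30 bases of the longest annotated 3′ UTR (GENCODE 44, GRCh38.p14, message strand). They come from genes with the smallest p among those that differed between 20 and 10 nM. In the lower genes the capitals mark the strongest seed match, and they are shown because genes lower at 20 nM had such matches more often than genes at large.
ZFTA: cgcttacctccccggcaggctcaGTGAGAA
RTN1: tgttgctaaaaaaagtgcatgatGGTGAGA
EIF4G2: tttttgtgggtgtgaaacaaatGGTGAGAA
NTNG2: gggccggcgtccgaggccgggcGGTGAGAA
In the higher genes the capitals mark the word GATAC, which was picked out only after the data had been seen. It is shown because 3′ UTRs of genes higher at 20 nM held it more often than those of other genes. Of the higher genes shown, ECE1 and EMC10 also had a 7-mer or 8-mer seed match, outside these windows.
PRRC2C: tacctgctttatGATACgtagtagtgaccg
UBE2V1: GATACtgtaaatGATACtaattttttgtcc
ECE1: tgacaagcgccaGATACgccacaaatacca
UHMK1: aataatatttatGATACcaggacagtgagg
EMC10: tggtatgctgcaGATACtctccacagaaac
TRIM2: tgctgctgatatGATACaagtagacaaaat
NTNG2 came after the 12 lower genes with the smallest p and was taken for its 8-mer after its values were seen (log2 fold change from 10 to 20 nM of -0.48). These windows lie at chr11:63762731-63762760 (ZFTA, minus strand), chr14:59596477-59596506 (RTN1, minus strand), chr11:10797169-10797198 (EIF4G2, minus strand), chr9:132242171-132242200 (NTNG2, plus strand), chr1:171592954-171592983 (PRRC2C, plus strand), chr20:50082591-50082620 (UBE2V1, minus strand), chr1:21219647-21219676 (ECE1, minus strand), chr1:162528074-162528103 (UHMK1, plus strand), chr19:50484939-50484968 (EMC10, plus strand) and chr4:153337618-153337647 (TRIM2, plus strand).

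The 6 libraries held 17.4 to 25.7 M estimated counts. At 20 nM replicate 3 stood apart. On the first principal component of the 6 libraries, which held 38.4% of the variance of log2 CPM (counts scaled to library size), it lay at 44.7 and the other 5 between -15.6 and -1.64. Its counts differed from those of replicates 1 and 2 with a chi-square of 46.5 and 36.7 per degree of freedom, against 8.40 between those 2 and 4.69 to 7.14 within 10 nM, so no pair of libraries agreed within sampling noise. Across 13951 genes, the difference of replicate 3 from the mean of replicates 1 and 2 had a Spearman correlation of 0.55 with the GC content of the 3′ UTR and of -0.27 with its length, a description over genes of the same libraries. For replicate 1 minus replicate 2 these correlations were -0.22 and 0.20. What part the deviation of replicate 3 had in the differences of single genes was not tested. The surrogate variable in the model, a term for unexplained variation between libraries, took the value 0.907 in this library and -0.242 to 0.0602 in the other 8. Fold changes below are therefore also given from the fit without it. RNA from a pair of wells was pooled by the study where it could be, and whether replicates came from separate cultures is not stated in the labels, so p-values measure the spread between these libraries. In bulk RNA, fewer cells expressing a gene and less RNA per cell cannot be told apart.

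At 20 nM, 417 of 14943 genes (2.79%) differed from 10 nM (called genes in the following: adjusted p under 0.05 by Benjamini-Hochberg, quasi-likelihood test of edgeR). Of these, 285 (1.91%) were higher and 132 (0.883%) lower. An unadjusted p under 0.05 was reached by 2220 genes. Higher genes had a median log2 fold change of 0.35 and lower genes of -0.27, so most differences were small, and 58 higher and 10 lower genes changed by more than 0.5 on the log2 scale. Without 20 nM replicate 3 the numbers were 315 higher (2.11%) and 147 lower (0.984%), among them 257 of the 285 and 104 of the 132. All 285 and all 132 kept their direction without it. The surrogate variable of the main fit mostly set replicate 3 apart (0.907 there), so that fit already rested largely on replicates 1 and 2. Agreement with the fit without replicate 3, here and for single genes below, is therefore no independent check. The 3 libraries at 20 nM lay above all 3 at 10 nM for 220 of the 285 and below them for 76 of the 132. Over all genes, the groups did not overlap for 1183 (7.92%, higher) and 945 (6.32%, lower). In the called genes that overlapped it was replicate 3 that did so, since replicates 1 and 2 lay beyond all 10 nM libraries for 285 of 285 and 132 of 132. Replicate 3 lay within the 10 nM range for 32 of the higher and 28 of the lower genes, and past it on the opposite side for 33 and 28. The call also depended on the surrogate variable: 67 genes were called without it (61 higher, 6 lower), and 287 (203 higher, 84 lower) without both it and replicate 3. A model with a block for replicate number and no surrogate variable called 124 genes (108 higher, 16 lower).

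**Figure D1:**
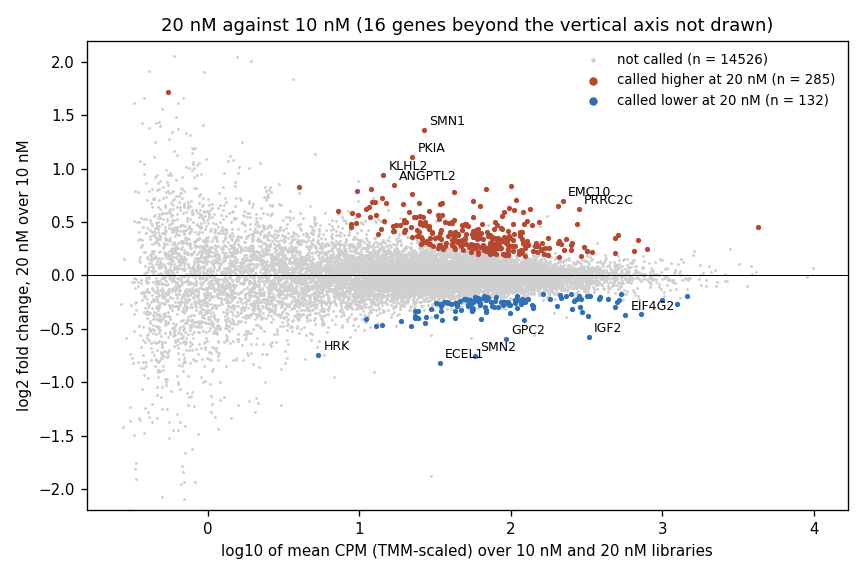
Each point is a gene, with the log10 of its mean CPM over the 6 libraries on the x axis and the log2 fold change from 10 to 20 nM on the y axis. The 285 called higher (red) outnumber the 132 called lower (blue), most lie within 0.5 of zero, and 16 genes beyond 2.2 are not drawn.

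The 12 higher genes with the smallest p (mean of at least 1 CPM, higher in all 3 same-numbered pairs) rose by 0.51 to 1.36 on the log2 scale, and 12 of 12 were also called without 20 nM replicate 3. Several act in signalling. GNA13, the alpha subunit of the heterotrimeric G protein G13, was at 107, 112 and 108 CPM at 10 nM and 162, 151 and 129.8 CPM at 20 nM (replicates 1 to 3), with 95.4 to 100.2 in Ctrl. Its log2 fold change was 0.51 ± 0.047 (SE, 0.52 without replicate 3, adjusted p = 0.000109 by edgeR). PKIA, an inhibitor of protein kinase A, had the largest rise among the 12 apart from SMN1. It was at 13.1, 14.9 and 15.1 CPM at 10 nM, 30.4, 32.5 and 28.8 CPM at 20 nM and 14.8 ± 1.54 (SD, n = 3) in Ctrl. (log2 fold change 1.11 ± 0.098 SE, 1.15 without replicate 3, adjusted p = 9.21e-05 by edgeR). For both genes all 20 nM libraries lay above all 10 nM libraries. STAT3, the transcription factor of cytokine signalling, was at 71.0, 79.9 and 77.4 CPM and then 114, 123 and 119.9 CPM, with Ctrl. at 70.2 to 77.6 (log2 fold change 0.63 ± 0.059 SE, 0.64 without replicate 3, adjusted p = 0.000109 by edgeR). UHMK1, a serine/threonine kinase with an RNA-binding domain, went from 85.2, 84.2 and 86.4 CPM to 148, 133 and 112 CPM, with Ctrl. at 68.5 to 76.5 (log2 fold change 0.71 ± 0.056 SE, 0.72 without replicate 3, adjusted p = 3.26e-05 by edgeR). In UHMK1 and GNA13 replicate 3 was the lowest of the 20 nM libraries, while STAT3 and PKIA varied less between them.

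A pair of membrane proteases rose. ADAM9, a membrane-anchored metalloprotease, was at 31.8, 32.5 and 30.7 CPM at 10 nM, 56.3, 52.6 and 49.6 CPM at 20 nM and 29.7 to 30.8 in Ctrl. (log2 fold change 0.78 ± 0.056 SE, 0.77 without replicate 3, adjusted p = 2.24e-05 by edgeR). ECE1, the endothelin-converting enzyme, was at 97.7, 98.9 and 108 CPM and then 153, 158 and 186 CPM (log2 fold change 0.62 ± 0.046 SE, 0.63 without replicate 3, adjusted p = 2.24e-05 by edgeR). The Ctrl. level of ADAM9 was close to that at 10 nM. EMC10, a subunit of the complex that inserts proteins into the endoplasmic reticulum membrane, went from 152, 161 and 176 CPM to 259.5, 269 and 303 CPM, with Ctrl. at 125 to 145 (log2 fold change 0.69 ± 0.059 SE, 0.72 without replicate 3, adjusted p = 7.87e-05 by edgeR). In ECE1 and EMC10 replicate 3 was the highest of the 20 nM libraries.

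The remaining higher genes act in RNA metabolism, ubiquitination and other processes. PRRC2C, a protein of stress granules, had nearly the same level in the 10 nM libraries, 229.9, 231 and 231 CPM, against 367, 353 and 289 CPM at 20 nM and 235 to 247 in Ctrl. (log2 fold change 0.63 ± 0.044 SE, 0.64 without replicate 3, adjusted p = 2.24e-05 by edgeR). UBE2V1, a ubiquitin-conjugating enzyme variant, went from 75.2, 77.9 and 76.0 CPM to 142, 138 and 94.2 CPM (log2 fold change 0.84 ± 0.063 SE, 0.87 without replicate 3, adjusted p = 2.24e-05 by edgeR), and it shares exons with a read-through transcript of its neighbour, so its counts are uncertain. TRIM2, a ubiquitin ligase of neurons, went from 87.7, 84.9 and 87.7 CPM to 139.6, 129 and 102 CPM (log2 fold change 0.61 ± 0.056 SE, 0.64 without replicate 3, adjusted p = 0.000109 by edgeR). AIDA, which binds axin, went from 73.8, 76.0 and 72.5 CPM to 117, 109 and 89.4 CPM (log2 fold change 0.60 ± 0.055 SE, 0.60 without replicate 3, adjusted p = 0.000109 by edgeR). In all 4 of these genes replicate 3 was the lowest library at 20 nM yet above all 3 at 10 nM. By size of the change at a mean of at least 5 CPM, KLHL2 and ANGPTL2 joined PKIA, UBE2V1 and SMN1. KLHL2, a substrate adaptor of cullin ubiquitin ligases, rose from 9.40, 8.39 and 11.3 CPM to 19.6, 17.4 and 20.6 CPM (log2 fold change 0.94 ± 0.12 SE, 0.98 without replicate 3, adjusted p = 0.00111 by edgeR). ANGPTL2, a secreted angiopoietin-like protein, rose from 11.5, 12.6 and 11.1 CPM to 21.4, 20.0 and 25.2 CPM (log2 fold change 0.85 ± 0.11 SE, 0.79 without replicate 3, adjusted p = 0.00104 by edgeR).

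SMN1 and SMN2, which encode the survival motor neuron protein, were called in opposite directions. SMN1 was at 13.9, 18.1 and 11.4 CPM at 10 nM and 35.3, 38.4 and 44.0 CPM at 20 nM (log2 fold change 1.36 ± 0.13 SE, 1.33 without replicate 3, adjusted p = 0.000109 by edgeR), whereas SMN2 was at 74.8, 77.5 and 70.1 CPM and 44.2, 44.5 and 36.5 CPM (log2 fold change -0.75 ± 0.053 SE, -0.75 without replicate 3, adjusted p = 2.24e-05 by edgeR). In Ctrl. SMN1 was at 42.9 to 47.2 CPM and SMN2 at 53.1 to 55.7 CPM, so SMN1 was lowest and SMN2 highest at 10 nM. The genes are near-identical copies, so the counting can move reads from one to the other and the values of both are uncertain. Their sum was 88.7, 95.6 and 81.5 CPM at 10 nM and 79.6, 82.9 and 80.5 CPM at 20 nM, and these ranges overlap.

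The 12 lower genes with the smallest p fell by less, from -0.75 to -0.29 on the log2 scale, and 12 of 12 were also called without replicate 3. Several are surface or adaptor proteins of neurons. GPC2, a neuronal glypican, was at 109, 106 and 108 CPM at 10 nM and 70.0, 69.5 and 97.1 CPM at 20 nM, with 127 to 131 in Ctrl. (log2 fold change -0.59 ± 0.055 SE, -0.63 without replicate 3, adjusted p = 0.000109 by edgeR). CD200, a surface glycoprotein that restrains immune cells, went from 37.8, 39.2 and 41.8 CPM to 29.6, 29.6 and 32.6 CPM (log2 fold change -0.42 ± 0.062 SE, -0.40 without replicate 3, adjusted p = 0.00278 by edgeR). DOK4, a docking protein of receptor tyrosine kinases, went from 806, 767 and 825 CPM to 617, 626 and 683 CPM (log2 fold change -0.36 ± 0.043 SE, -0.36 without replicate 3, adjusted p = 0.000771 by edgeR), with Ctrl. at 794 to 813. The DOK4 level in Ctrl. was close to that at 10 nM. NREP, a regulator of neuronal regeneration, went from 289, 286 and 283 CPM to 228, 233 and 212 CPM (log2 fold change -0.32 ± 0.040 SE, -0.32 without replicate 3, adjusted p = 0.00104 by edgeR). OCRL, an inositol polyphosphate 5-phosphatase, went from 95.3, 93.5 and 91.0 CPM to 79.0, 74.5 and 62.3 CPM (log2 fold change -0.29 ± 0.042 SE, -0.29 without replicate 3, adjusted p = 0.0026 by edgeR). Replicate 3 was the highest library at 20 nM in GPC2, CD200 and DOK4 and the lowest in NREP and OCRL, and in all 5 genes the groups did not overlap.

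Others bind nucleic acids. ZFTA, a zinc finger protein, went from 142, 139 and 136 CPM to 104, 101 and 116 CPM (log2 fold change -0.42 ± 0.048 SE, -0.45 without replicate 3, adjusted p = 0.000494 by edgeR). ARID3A, a DNA-binding protein, was the only one of the 12 whose groups overlapped: 65.2, 67.6 and 75.8 CPM at 10 nM and 52.9, 51.0 and 70.3 CPM at 20 nM, where replicate 3 lay within the 10 nM range (log2 fold change -0.40 ± 0.060 SE, -0.39 without replicate 3, adjusted p = 0.00315 by edgeR). SZRD1 went from 227, 223 and 216 CPM to 178, 186 and 177 CPM (log2 fold change -0.29 ± 0.043 SE, -0.29 without replicate 3, adjusted p = 0.00327 by edgeR). By size of the change, ECEL1, HRK and IGF2 joined GPC2 and SMN2. ECEL1, an endopeptidase of neurons, went from 40.9, 36.7 and 48.5 CPM to 24.6, 22.8 and 29.9 CPM (log2 fold change -0.82 ± 0.14 SE, -0.77 without replicate 3, adjusted p = 0.00817 by edgeR). HRK, a BH3-only activator of apoptosis, went from 6.96, 5.63 and 7.54 CPM to 4.31, 3.61 and 4.21 CPM (log2 fold change -0.74 ± 0.18 SE, -0.74 without replicate 3, adjusted p = 0.0455 by edgeR). IGF2, insulin-like growth factor 2, went from 354, 339 and 449 CPM to 240.5, 271 and 308 CPM (log2 fold change -0.58 ± 0.12 SE, -0.52 without replicate 3, adjusted p = 0.0204 by edgeR). HRK stood at few CPM and just inside the threshold. Of 23 alternative fits, the call of HRK was lost in 10, that of IGF2 in 7 and that of ECEL1 in 3.

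**Figure D2:**
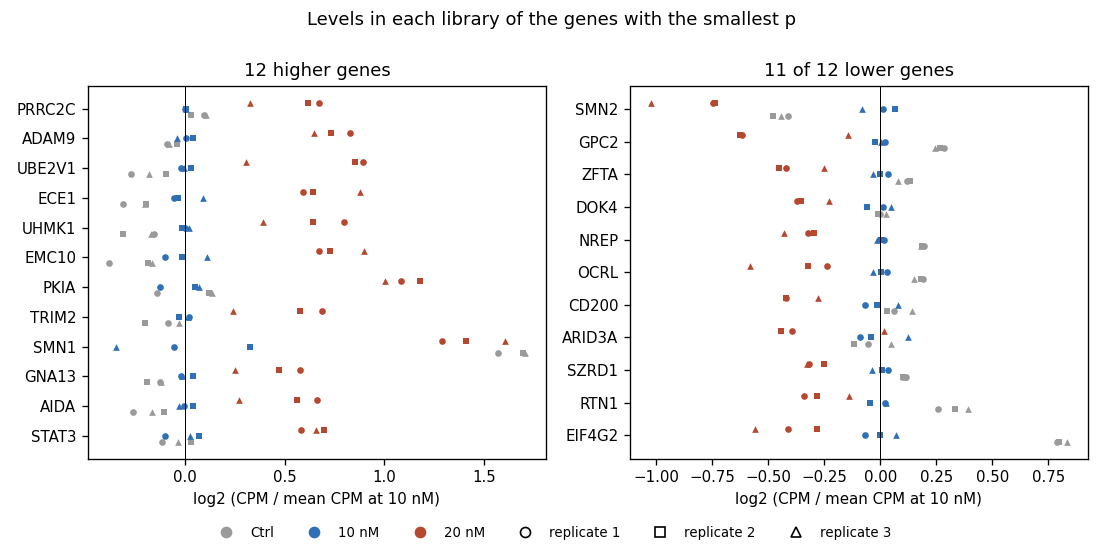
The log2 ratio of the CPM in each library to the mean at 10 nM is on the x axis for the 12 higher (left) and 11 of the 12 lower genes (right) with the smallest p. Grey is Ctrl., blue 10 nM and red 20 nM, with a marker per replicate, and of the genes drawn the groups at 10 and 20 nM overlap for ARID3A alone.

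The 11 putative targets named by the study were picked on these libraries. SYNJ2BP was also tested by the study in luciferase assays in HEK cells and reported as a direct target. The study's fits included the amount of mimic over Ctrl., 10 nM and 20 nM. Neither the direction of these targets against Ctrl. nor that between 10 and 20 nM is therefore independent evidence. Between 10 and 20 nM, 10 of 11 had a log2 fold change below 0 (median -0.18, against 0.0028 over all genes). Of the 11, 0 were called higher and 4 were called lower, and the same numbers were called without replicate 3. Over all 14943 genes, 7353 had a value below 0, 1.91% were called higher and 0.883% lower. EIF4G2, a translation initiation factor, was at 621, 652 and 684 CPM at 10 nM and 489.5, 536 and 443 CPM at 20 nM (log2 fold change -0.37 ± 0.060 SE, -0.34 without replicate 3, adjusted p = 0.00492 by edgeR). RTN1, a reticulon of the neuronal endoplasmic reticulum, was at 156, 149 and 156 CPM and then 121, 126 and 139 CPM (log2 fold change -0.31 ± 0.048 SE, -0.31 without replicate 3, adjusted p = 0.00435 by edgeR). HIPK2, a nuclear kinase, was at 76.6, 81.2 and 87.4 CPM and then 65.0, 66.1 and 88.0 CPM (log2 fold change -0.30 ± 0.058 SE, -0.30 without replicate 3, adjusted p = 0.0153 by edgeR), so that replicate 3 lay above all 10 nM libraries in uncorrected CPM. DLGAP4, a scaffold protein of the postsynaptic density, was at 95.8, 91.3 and 102 CPM and then 80.0, 81.0 and 92.1 CPM (log2 fold change -0.25 ± 0.054 SE, -0.25 without replicate 3, adjusted p = 0.0281 by edgeR), with replicate 3 within the 10 nM range. The number called differed in other fits: 1 of 11 without the surrogate variable or with the replicate block in its place, 0 without 20 nM replicate 1 and in both fits of the 6 libraries without a surrogate variable, 2 without 20 nM replicate 2 or without 10 nM replicate 3, 5 with DESeq2, and 7 without 20 nM replicate 3 when the surrogate variables were estimated anew.

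The other 7 targets missed the threshold. From Ctrl. to 10 nM their log2 fold changes were -0.17 (ADD2), -0.46 (ARL6IP1), -0.57 (SLC25A20), -0.28 (MTX3), -0.23 (MTOR), -0.38 (PAK3) and -0.42 (SYNJ2BP). The fold changes that follow are for the further step from 10 to 20 nM only. ADD2, a protein of the membrane skeleton, was at 88.7, 93.6 and 90.6 CPM and then 80.8, 82.5 and 81.3 CPM, with a log2 fold change of -0.16 ± 0.045 (SE, -0.16 without replicate 3, adjusted p = 0.0898 by edgeR). ARL6IP1, a protein that shapes the endoplasmic reticulum, was at 157, 166 and 177 CPM and then 146, 151 and 144 CPM, with a log2 fold change of -0.18 ± 0.054 (SE, -0.15 without replicate 3, adjusted p = 0.101 by edgeR). The groups did not overlap for either. SLC25A20, the mitochondrial carnitine carrier, had a log2 fold change of -0.41 ± 0.12 (SE, -0.37 without replicate 3, adjusted p = 0.0938 by edgeR), and MTX3, a mitochondrial outer membrane protein, of -0.13 ± 0.090 (SE, -0.14 without replicate 3, adjusted p = 0.579 by edgeR). For MTOR, the kinase of growth control, it was -0.10 ± 0.046 (SE, -0.12 without replicate 3, adjusted p = 0.358 by edgeR), for the kinase PAK3 -0.037 ± 0.094 (SE, -0.0019 without replicate 3, adjusted p = 0.914 by edgeR), and for SYNJ2BP, a mitochondrial outer membrane protein, 0.11 ± 0.056 (SE, 0.10 without replicate 3, adjusted p = 0.386 by edgeR). The 95% confidence intervals of MTX3, MTOR, PAK3 and SYNJ2BP all included 0, and reached down to -0.32, -0.20, -0.24 and -0.0097.

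Messages with a seed match were compared next. Of 13951 genes with a 3′ UTR of at least 50 bases, 25.2% had a 7-mer or 8-mer match. Lower genes had one in 52 of 129 cases (40.3%) and higher genes in 84 of 284 (29.6%), and the higher genes also had longer UTRs (median 2746 bases, against 2195 in the lower genes and 1868 overall). An 8-mer was found in 13.2% of the lower genes, 4.58% of the higher and 5.30% of all. The median log2 fold change was -0.013 for genes with an 8-mer (739 genes), -0.0095 with the 7-mer to bases 2 to 8 (1316 genes), 0.0087 with the 7-mer to bases 2 to 7 (1458 genes) and 0.0059 with no match (8052 genes). With UTR length and GC content in a regression across genes, the coefficients were -0.042, -0.023 and -0.016 for these kinds of site. Without 20 nM replicate 3 they were -0.043, -0.025 and -0.019. Among all 16384 7-mers, ranked by the same regression on the presence of each, GGTGAGA came at place 1 from the lowest and GTGAGAA at place 6, both with and without replicate 3. Per library, the coefficient of carrying a 7-mer or 8-mer match on the log2 CPM centred per gene was -0.0038, 0.0010 and -0.0067 at 10 nM and -0.026, -0.026 and -0.0079 at 20 nM (replicates 1 to 3). The Ctrl. libraries had 0.029, 0.018 and 0.022. The 20 nM libraries lay below all 10 nM libraries, replicate 3 only just, and no test was taken over this score.

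At the other end of the same ranking stood words that are not seed matches. Of the 20 7-mers with the highest place, 19 contained GATAC, 18 without replicate 3. Ranked among the 1024 5-mers, GATAC came at place 1, with a coefficient of 0.051 (also 0.051 without replicate 3). It was at place 1 in 11 of 11 fits tried, with 0.045 to 0.062, among them no surrogate variable, the 6 libraries alone and the canonical UTR of each gene. The word was searched for on the message strand only, its first letters can coincide with the end of the 6-mer GTGAGA, and since it was chosen from the values themselves its association is a description with no test. The largest coefficient among the 6-mers containing it was that of GATACG (0.077, 992 genes), although GATACT (0.051, 4047 genes) ranked first. In coding sequence, GATACGA ranked first among the 7-mers, while 2 of the first 20 contained GATAC.

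Of the 284 higher genes with a UTR, 260 (91.5%) had GATAC, against 54.3% of all genes and 62 of 129 lower genes (48.1%). Longer UTRs hold any word more often, so the shares are also given by length. Among the shortest UTRs when genes were split into 4 equal groups by length, 20 of 28 higher genes (71.4%) and 17.9% of all had it, in the second 43 of 55 (78.2%) against 43.3%, in the third 89 of 92 (96.7%) against 67.3%, and in the longest 108 of 109 (99.1%) against 88.7%. The density was 0.843 copies per kb in the higher genes, 0.335 in the lower and 0.496 in all. The share of genes called higher went up with the number of copies: 0.376% of 6378 genes without the word, 1.88% with 1 copy, 3.22% with 2, 4.77% with 3 and 6.69% of 1315 genes with 4 or more. Longer UTRs hold more copies, and neither these shares nor the medians that follow were split by length. The median log2 fold change went from -0.014 without the word to 0.048 with 4 or more copies, and from -0.017 to 0.046 without replicate 3. The typical gene with the word thus moved little. Among the 12 higher genes described above 11 had it, in 1 to 8 copies, SMN1 being the exception, and 6 of the 12 lower genes had it too. A 7-mer or 8-mer seed match was present in 7 of the 12 higher and 4 of the 12 lower genes, against 25.2% of all genes. In these genes with the smallest p, seed matches were thus not more frequent among the lower.

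**Figure D3:**
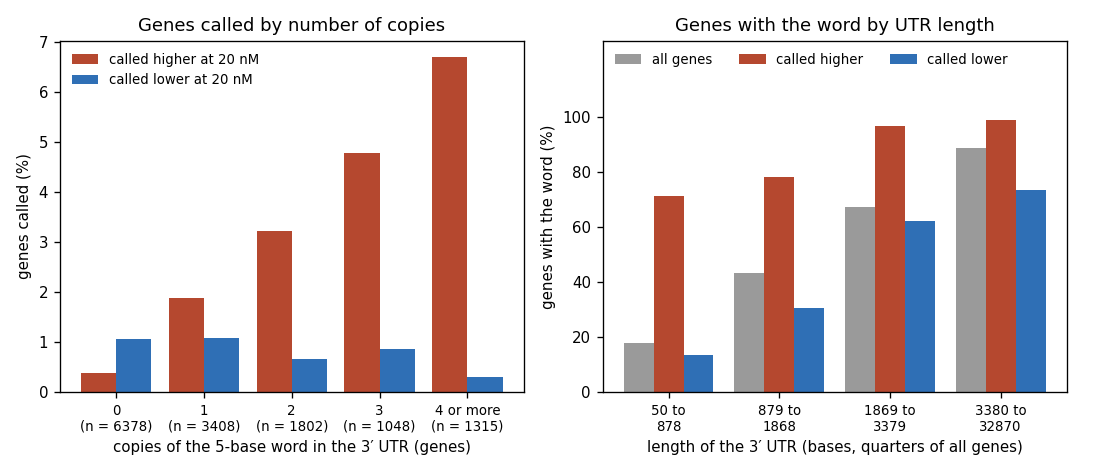
The share of genes called higher (red) or lower (blue) at 20 nM is plotted in percent by copies of GATAC in the 3′ UTR (left), and the share of genes with the word for 4 equal groups of UTR length (right, all genes in grey). Red bars rise from 0.376% to 6.69% with copies (left, not split by UTR length), and lie above the grey bars in every length group (right).

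The score of the word in each library, the coefficient of carrying GATAC computed like the seed score, was -0.012, -0.0029 and -0.0084 at 10 nM and 0.041, 0.047 and 0.022 at 20 nM (mean -0.0077 ± 0.0046 and 0.037 ± 0.013, SD, n = 3). In Ctrl. it was -0.031, -0.020 and -0.036. The 20 nM libraries, replicate 3 included, lay above all others, and the Ctrl. libraries below all others. The word was chosen on the difference between 10 and 20 nM, so the separation of these groups largely follows from that choice and is no test. The order of the groups in this score is that of rising mimic and of falling control oligonucleotide alike. Genes were also split by both features. With the word and no 7-mer or 8-mer seed match, 180 of 4998 genes (3.60%) were called higher and 28 (0.560%) lower. With both, it was 80 of 2575 (3.11%) and 34 (1.32%). With a seed match alone, 4 of 938 (0.426%) were called higher and 18 (1.92%) lower, and with neither 20 of 5440 (0.368%) and 49 (0.901%). The median log2 fold changes of these 4 classes were 0.025, 0.0097, -0.036 and -0.011.

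**Figure D4:**
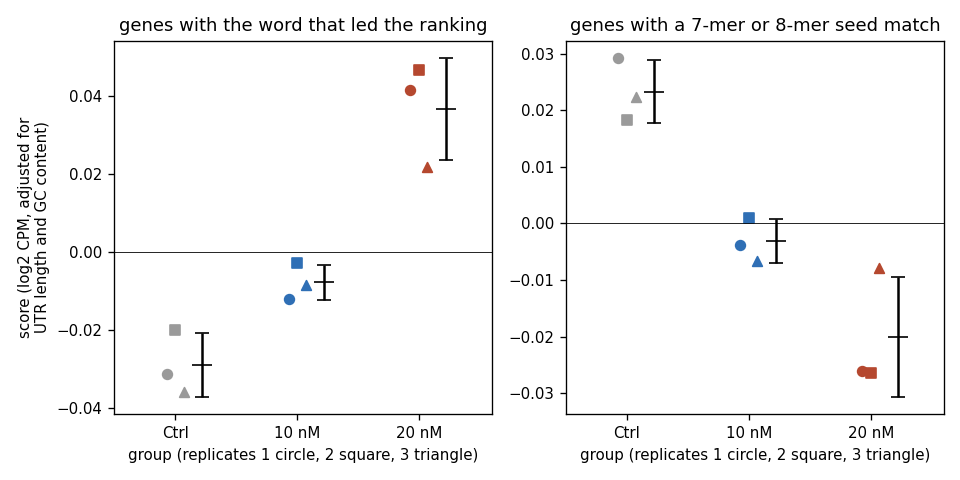
The score of genes with GATAC (left) and of genes with a 7-mer or 8-mer seed match (right) is on the y axis in units of log2 CPM for each of the 9 libraries, with mean and SD of each group beside them. The word score is highest at 20 nM (0.022 to 0.047) and the seed score lowest there (-0.026 to -0.0079).

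The cells were checked against markers of neuroblastoma. Of the markers of the noradrenergic state, 20 of 20 were among the genes tested, with PHOX2A at 758 ± 102, HAND2 at 1197 ± 52.3 and GATA2 at 1196 ± 158 CPM at 20 nM, and DBH, which makes noradrenaline, was at 1805 ± 269. TH, the first enzyme of the same pathway, was at 0.521 ± 0.341 CPM at 10 nM and 0.154 ± 0.0279 at 20 nM and was not called (edgeR adjusted p = 0.161). Of the 20 noradrenergic markers 0 were called, with a median of -0.046. Of 15 mesenchymal markers 0 were called, with a median of 0.13, and CD44 (0.66 ± 0.22 SE, 0.64 without replicate 3, adjusted p = 0.151 by edgeR) and WWTR1 (1.12 ± 0.38 SE, 1.11 without replicate 3, adjusted p = 0.161 by edgeR) had the smallest p, both at a few CPM or below. At 20 nM the 15 mesenchymal markers averaged 4.27, 4.32 and 4.08 log2 CPM (replicates 1 to 3). The 20 noradrenergic markers averaged 6.94, 6.98 and 7.08. Some other mesenchymal markers thus stood well above CD44 and WWTR1. Schwann cell markers were low: SOX10 and FOXD3 were not among the genes tested, and S100B and ERBB3 were at 3.94 ± 0.806 and 1.36 ± 0.155 CPM at 20 nM. For 3 of 3 measured Schwann cell genes no difference was called (S100B -0.28 ± 0.18 SE, -0.28 without replicate 3, adjusted p = 0.537 by edgeR).

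Lists of genes of other processes held 0 to 2 called members each, where 2.79% of all genes were called. In the secretory pathway, 2 of 22 genes of the unfolded protein response were called higher and 0 lower (median 0.056): CANX, a chaperone of glycoproteins (0.21 ± 0.047 SE, 0.23 without replicate 3, adjusted p = 0.0282 by edgeR), and PDIA4, a disulfide isomerase (0.22 ± 0.053 SE, 0.24 without replicate 3, adjusted p = 0.044 by edgeR). These calls were lost in 10 and 17 of 23 alternative fits. Of 31 glycosaminoglycan synthesis genes, 2 were called higher and 0 lower (median 0.036). These were CHPF, a chondroitin polymerizing factor, from 116, 123 and 135 to 147, 160.5 and 199.7 CPM (0.31 ± 0.048 SE, 0.32 without replicate 3, adjusted p = 0.00427 by edgeR), and XYLT2, which starts the chains (0.27 ± 0.060 SE, 0.24 without replicate 3, adjusted p = 0.0324 by edgeR). CHPF lost its call in 4 of 23 alternative fits and XYLT2 in 11. In cholesterol synthesis 1 of 23 was called (median 0.062), the lanosterol demethylase CYP51A1 (0.30 ± 0.048 SE, 0.30 without replicate 3, adjusted p = 0.00535 by edgeR). Among 37 lysosomal genes 1 was called lower, ATP6V1A, a subunit of the proton pump (-0.23 ± 0.053 SE, -0.21 without replicate 3, adjusted p = 0.0398 by edgeR). The call of ATP6V1A was lost in 13 of 23 alternative fits and that of CYP51A1 in 5.

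In energy metabolism, 1 of 37 nuclear genes of complex I was called (median 0.026). This was the subunit NDUFA6, from 13.4, 13.9 and 13.4 to 20.0, 22.4 and 33.5 CPM (0.67 ± 0.094 SE, 0.64 without replicate 3, adjusted p = 0.00226 by edgeR). Hexokinase 2 (HK2) was the 1 called of 21 glycolysis genes (median 0.060), from 91.7, 105 and 93.0 to 120.2, 135 and 145 CPM (0.40 ± 0.067 SE, 0.39 without replicate 3, adjusted p = 0.00593 by edgeR). In both genes replicate 3 was the highest library. Of the 13 protein-coding genes of mitochondrial DNA, 0 were called (median 0.091, 0.0029 without replicate 3). MT-ND2 (0.25 ± 0.15 SE, 0.15 without replicate 3, adjusted p = 0.508 by edgeR) and MT-ND5 (0.19 ± 0.14 SE, 0.12 without replicate 3, adjusted p = 0.572 by edgeR) had the smallest p, and their levels within each group spread widely, with replicate 1 the highest at both concentrations (MT-ND2: 3269, 2408 and 2341 CPM at 10 nM, 3697, 2435 and 2738 CPM at 20 nM).

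In growth and stress programmes, 0 of 34 genes of G1/S and DNA replication and 0 of 31 of G2/M and mitosis were called (medians -0.011 and 0.013). E2F1, the transcription factor of S phase entry, was at 93.6, 83.4 and 99.9 CPM at 10 nM and 71.9, 72.5 and 125 CPM at 20 nM (-0.31 ± 0.084 SE, -0.33 without replicate 3, adjusted p = 0.0701 by edgeR): replicates 1 and 2 lay below and replicate 3 above all 10 nM libraries, and it was called in 10 of 23 alternative fits. CDC25A (-0.11 ± 0.050 SE, -0.11 without replicate 3, adjusted p = 0.328 by edgeR), AURKA (0.19 ± 0.059 SE, 0.17 without replicate 3, adjusted p = 0.115 by edgeR) and CDC25C (-0.23 ± 0.11 SE, -0.22 without replicate 3, adjusted p = 0.378 by edgeR), all regulators of the cell cycle, were not called. Of 27 p53 targets 1 was called, ZMAT3, a zinc finger RNA-binding protein (0.40 ± 0.051 SE, 0.40 without replicate 3, adjusted p = 0.0011 by edgeR), against a list median of -0.10. Of 21 ATF4 targets it was DDIT4, an inhibitor of mTOR signalling (0.43 ± 0.092 SE, 0.44 without replicate 3, adjusted p = 0.0282 by edgeR), against a median of -0.086. In both lists the called gene rose while 18 of 27 and 15 of 21 members had values below 0, against 7353 of all 14943 genes. Of 13 immediate early genes IER2 was called lower (-0.31 ± 0.056 SE, -0.29 without replicate 3, adjusted p = 0.00972 by edgeR, median of the list -0.21). It was at 110.4, 108 and 129 CPM at 10 nM and 88.6, 96.6 and 132 CPM at 20 nM, where replicate 3 lay above all 10 nM libraries, and the call was lost in 6 of 23 alternative fits. Interferon response genes had 0 of 26 called (median 0.028), with HERC6 (-0.31 ± 0.14 SE, -0.33 without replicate 3, adjusted p = 0.312 by edgeR) and OAS1 (0.34 ± 0.17 SE, 0.36 without replicate 3, adjusted p = 0.395 by edgeR) at the smallest p.

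Among protein synthesis and turnover genes, 0 of 78 cytosolic ribosomal proteins (median -0.030) and 0 of 31 proteasome subunits (median 0.037) were called. RPL15 (-0.15 ± 0.067 SE, -0.13 without replicate 3, adjusted p = 0.307 by edgeR), RPL7A (0.12 ± 0.059 SE, 0.11 without replicate 3, adjusted p = 0.391 by edgeR), PSMD6 (0.21 ± 0.061 SE, 0.19 without replicate 3, adjusted p = 0.0958 by edgeR) and PSMD7 (0.10 ± 0.048 SE, 0.10 without replicate 3, adjusted p = 0.36 by edgeR) had the smallest p. Of 18 genes of the microRNA machinery 1 was called higher, the decapping enzyme DCP2 (0.34 ± 0.059 SE, 0.36 without replicate 3, adjusted p = 0.00755 by edgeR). It was at 70.6, 66.9 and 72.0 CPM at 10 nM and 96.0, 83.6 and 64.6 CPM at 20 nM, where replicate 3 lay below all 10 nM libraries. Of 32 synaptic genes, the scaffold gene SHANK3 was called higher, from 20.5, 23.7 and 21.9 to 29.1, 33.7 and 34.4 CPM (0.50 ± 0.087 SE, 0.51 without replicate 3, adjusted p = 0.00755 by edgeR), and DLGAP4 lower (median -0.069). Without 20 nM replicate 3, calls gained in these lists included E2F1 (edgeR adjusted p = 0.0126) and the lysosomal proton pump gene ATP6V0A1 (0.0475), both lower, and the heparan sulfate epimerase gene GLCE (0.0351) and the exoribonuclease gene XRN1 (0.0400), both higher, and the call of PDIA4 was lost (0.0627). Of the other called members, DDIT4 and DLGAP4 lost their calls in 8 of 23 alternative fits each, DCP2 in 5, NDUFA6, HK2 and SHANK3 in 3 each and ZMAT3 in 2. The 8 nuclear long non-coding RNAs of a further list were not among the genes tested.

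**Figure D5:**
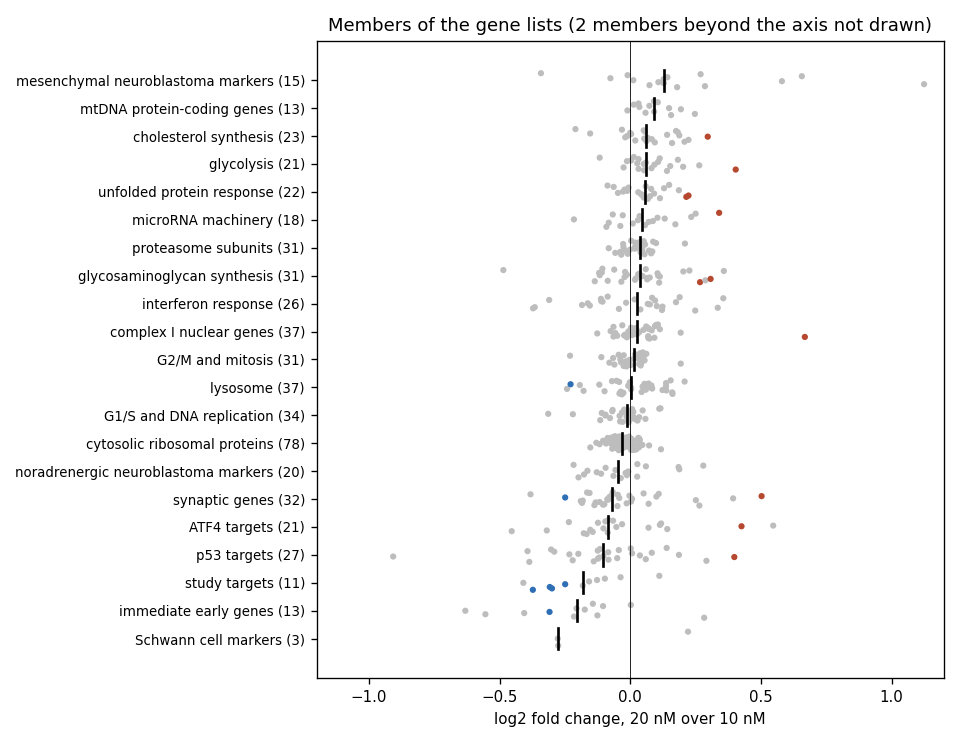
Each point is a member of a gene list (number measured in brackets) at its log2 fold change from 10 to 20 nM on the x axis, with called members in red (higher) or blue (lower) and the black bar at the median. Called members are few in every list, the study targets having the most with 4, and 2 members beyond 1.2 are not drawn.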

How the data were processed

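Salmon was run by the authors against GRCh38.p13 and its output summed to genes. The deposited table holds estimated counts for 14943 genes, of which 88.8% of the values are not whole. Further deposited tables of the authors' own comparisons and of corrected log values were not used. Whether strand was used is not stated, so overlapping and antisense genes can exchange reads.

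Counts were rounded and analysed in edgeR 4.0.16 (R 4.3.3) with TMM scaling and the quasi-likelihood test over all 9 libraries, with 1 surrogate variable (sva 3.50.0 on log2 CPM, prior count 2) and 5 residual degrees of freedom. P-values were adjusted by Benjamini-Hochberg over all genes. CPM are TMM-scaled and not corrected for the surrogate variable, whereas fold changes are.

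Genes described were the 12 higher and 12 lower with the smallest p (at least 1 CPM on average, same direction in 3 of 3 same-numbered pairs), the 5 and 5 with the largest change (at least 5 CPM), the study's 11 targets, and per list up to 4 called members or, with none called, the 2 with the smallest p. Some of these genes and sites are not reported here. The members and lists were chosen with earlier results of these data known, and GATAC after its values were seen.

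UTRs of at least 50 bases came from GENCODE 44 (GRCh38.p14, against the authors' GRCh38.p13), where 13295 genes were found by identifier and 714 by symbol, while 934 had no match. Words were ranked by regression of the fold change on presence, log UTR length and GC content. In simulated counts of this comparison (14943 genes, 100 changed per size), 47 to 54 were recovered at a log2 change of 0.5 and 87 to 92 at 1, with 9 to 15 false calls. With an outlying library 36 and 82 to 87 were recovered, with 4 to 15 false calls. The noise added to that library was drawn independently for each gene. The real replicate 3 deviated with the GC content of the UTR, so these counts need not hold for the data. Alternatives were scaling, surrogate variables, a replicate block, the libraries fitted, DESeq2 1.42.0, filters and left-out libraries.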

Additional observations from a re-analysis of the deposited data

How the results depend on the processing

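The number of genes called between 20 and 10 nM, 417, depended on the model. It was 67 with no surrogate variable, 16 with the 6 libraries alone and no surrogate variable, 1495 when the surrogate variables were estimated anew (2 of them) without 20 nM replicate 3, and 237 with the other 5 libraries alone, a fit chosen after seeing the data. Leaving out single libraries gave 111 to 462: 269, 257 and 231 without 10 nM replicates 1 to 3, 111 without 20 nM replicate 1, and 175 without 20 nM replicate 2. It was within 1.5 times of 417 with the other scalings (416 and 402), DESeq2 (472), the filters (436 and 493) and without single Ctrl. libraries (373 to 413). The cause was not tested. The share of higher genes, 68.3% here, was 91.0% with no surrogate variable and 55.0% in the fit with 1495 calls.

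With a replicate block, 124 genes were called in place of the surrogate variable (9 libraries) and 12 with the 6 libraries alone. Deviations from the group means of 10 and 20 nM correlated at 0.174, 0.0288 and 0.176 for numbers 1 to 3, so that 1 of these pairs was below the criterion of 0.1. With the same-numbered Ctrl. libraries they correlated at 0.142 to 0.185 (10 nM) and 0.107 to 0.116 (20 nM), all above it. Pairing by number is therefore possible, and the labels do not state what a number marks. Of the 12 higher and 12 lower genes with the smallest p, 6 and 1 were called in either fit of the 6 libraries without a surrogate variable, and 11 and 5 with 9 libraries and none.

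Signs turned for 4 genes that were not called: MTOR (0.015 with no surrogate variable, 0.0075 with the replicate block, 0.00418 with 6 libraries alone), PAK3 (0.00035 with the block, 0.0047 with surrogate variables estimated anew, -0.073 to 0.0099 with single libraries left out), MT-ND2 (-0.047 to 0.47 with single libraries left out) and MT-ND5 (-0.071 to 0.39). The log2 difference of genes with an 8-mer from genes with no match, -0.019, was -0.042 once adjusted for UTR length and GC content, and its other settings moved less than the spread at 20 nM.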
